A study of Lithobates clamitans with 20 samples.

Results

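Of the 8477 genes measured in the gut of green frog (Lithobates clamitans) tadpoles, 72 genes (0.849%) had lower levels in every tadpole with 32 in its animal code than in every tadpole with 22 in its code. These 72 genes are described here. They were chosen by their values: the highest normalized level among the 10 32-coded tadpoles had to lie below the lowest among the 10 22-coded tadpoles, with no count of 0 in any tadpole and a mean under 1000 CPM (counts scaled to a common library size). A further 5 genes met the condition on the levels but had a count of 0 in at least 1 tadpole and were left out, and 0 were left out for their mean, so that 77 genes (0.908%) lay lower without overlap at any count. In the opposite direction, 52 genes lay higher in the 32-coded tadpoles without overlap, 49 of them with no count of 0. Since the levels of 32-coded and 22-coded tadpoles chose the genes, the differences between these tadpoles are given as a description and not as a test.

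The study sequenced gut RNA from 20 tadpoles, 5 in each combination of a microbial treatment (depleted or colonized) and a temperature (32°C or 22°C), to ask how gut gene expression responds to 24 h of heat with and without a natural microbiome. All tadpoles were offspring of 1 spawning pair of wild frogs and grew up singly at 22°C in diluted pond water, which was autoclaved for depleted tadpoles and left as collected for colonized tadpoles. Depleted tadpoles carried a disrupted, less diverse microbiome. One library was made from each tadpole, from a portion of the whole gut, and the labels give no sequencing batch.

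The records of the tadpoles disagree about their treatment. Each animal code holds a letter (C or D) and a temperature, so that the codes form the groups C32, C22, D32 and D22 with 5 tadpoles each. For D32 (32°C, depleted) and C22 (22°C, colonized), the treatment fields of the records give the same treatment as the code, if D is read as depleted and C as colonized. For the other 10 tadpoles the fields say otherwise: C32 tadpoles are entered as depleted and kept at 22°C, and D22 tadpoles as colonized and moved to 32°C. By the fields, 32-coded against 22-coded tadpoles is depleted against colonized, and D-coded against C-coded is warm against cool. Which record is right was not settled, and the groups are called by their codes throughout. Grouped by the fields, 0 genes had all warm tadpoles below all cool tadpoles under the same rule.

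Tadpoles are ectotherms, so that the gut works at the temperature of the water. The tadpole gut is a long coil in which epithelial cells digest and absorb, mucus and immune cells face the microbes, and bacteria ferment part of the plant diet. In ectotherms, heat is known to change the amounts of many transcripts within hours, those of protein chaperones and of metabolism among them. Reads were counted on gene models of the American bullfrog, a close relative, and the files do not pair the gene identifiers with names. The 72 genes therefore appear by identifier, with no role given, and the identity of the tissue could not be checked against marker genes. In a sample of whole gut, fewer cells of a type and less RNA per cell cannot be told apart.

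Libraries held 17557653 to 22922461 counts in the 10 32-coded tadpoles and 11102195 to 22469475 counts in the 10 22-coded tadpoles. Counts were scaled with TMM factors, which correct library totals for RNA composition. The median factor was 1.14 in C32 and 1.16 in C22, and 1.20 in D32 and 0.708 in D22 tadpoles. The 4 lowest factors, between 0.682 and 0.708, belonged to C2206, D2201, D2202 and D2203. A low factor raises every normalized level of its library. Several counts and medians that rest on TMM are therefore also given with library totals alone. Most levels, changes and separations of single genes are given with TMM only, and their dependence on the scaling is not shown. The 5 tadpoles per group are taken as independent replicates.

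As a set, the 72 genes held less than 1% of all counts in each 32-coded tadpole. In C32 tadpoles their unscaled share was 0.569% to 0.763%, with a median of 0.709%, against 1.12% to 1.53%, with a median of 1.29%, in C22 tadpoles. In D32 tadpoles the share was 0.517% to 0.732%, with a median of 0.667%, against 0.977% to 1.20%, with a median of 1.14%, in D22 tadpoles. No 32-coded tadpole reached the share of any 22-coded tadpole. The summed normalized level was 5819 to 6315 CPM in C32 and 10467 to 16011 CPM in C22 tadpoles. It was 4947 to 6512 CPM in D32 and 11430 to 17644 CPM in D22 tadpoles. The order of the 22-coded groups depended on the scaling: the median sum was 14145 CPM in D22 and 12353 CPM in C22 with TMM, while the unscaled median share was lower in D22 than in C22.

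**Figure D1:**
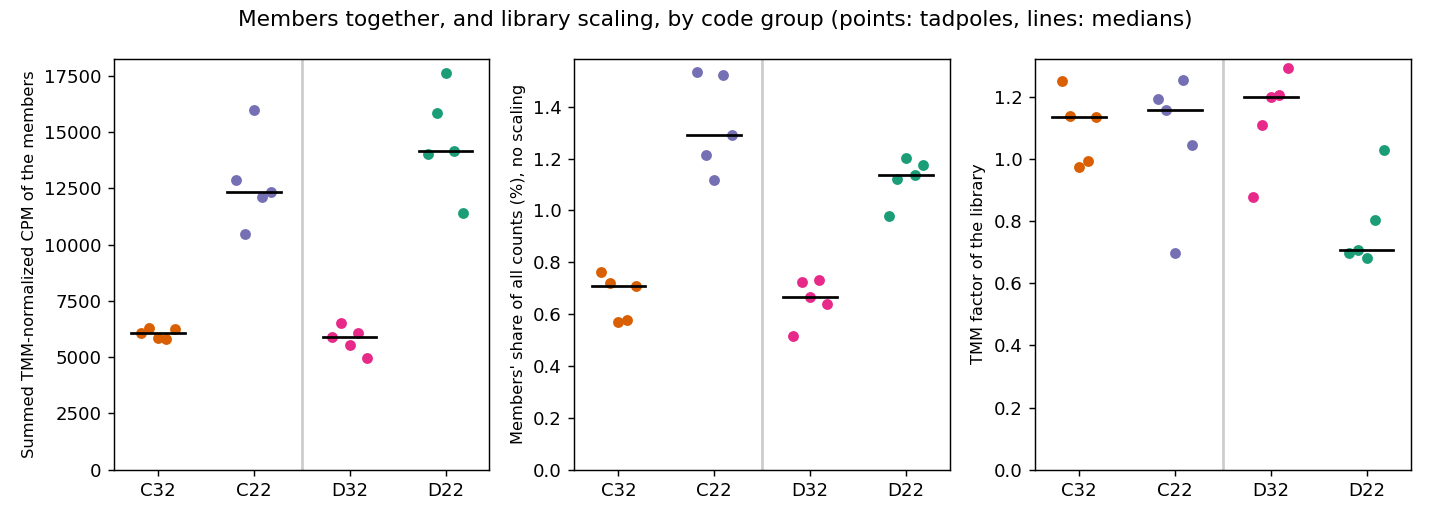
Summed TMM-normalized CPM of the 72 genes (left), their percentage of all counts with no scaling (middle) and the TMM factor of the library (right), by code group, with 1 point per tadpole and a line at the group median. The C32 and D32 points lie below all C22 and D22 points in the left and middle panels, and 4 of the 22-coded libraries have the lowest TMM factors.

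The 72 genes covered a wide range of abundance. Their mean level ran from 1.45 to 828 CPM with a median of 37.9 CPM, above the median of 10.6 CPM over all genes and of 14.3 CPM over the 6487 genes with no count of 0. A mean under 10 CPM was found for 12 genes, a mean from 10 to under 100 CPM for 37 genes and a mean of 100 CPM or more for 23 genes. The lowest count of any of them in any tadpole was 10, and 5 genes had a lowest count under 20. Within groups they varied less than other genes, with a median standard deviation (SD) of 0.35 on the log2 scale, against 0.47 for all genes with no count of 0. A rule that forbids overlap selects for low spread, so that this is a description of the choice.

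The size of the fall differed between the genes. The mean of 22-coded tadpoles was 1.34 to 19.8 times the mean of 32-coded tadpoles, with a median of 2.37 times. The ratio was 2 or more for 46 genes, 4 or more for 9 genes and under 1.5 for 5 genes. On the log2 scale of the edgeR fit, the 72 changes ran from -4.31 to -0.42, with a median of -1.24, while the median over all 8477 genes was -0.00. The quasi-likelihood test of edgeR called all 72 genes lower (Benjamini–Hochberg adjusted p under 0.05), as were 11.3% of all genes. Nothing is read from that count, since the same contrast chose the genes. Over all genes the test called 931 genes higher and 958 lower, and with library totals in place of TMM it called 1173 higher and 361 lower, which shows how much the direction of calls depended on scaling. With library totals the median of all genes moved by 0.27 and that of the 72 genes was -0.91. All 72 genes kept a negative change, and 61 of them were called.

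**Figure D2:**
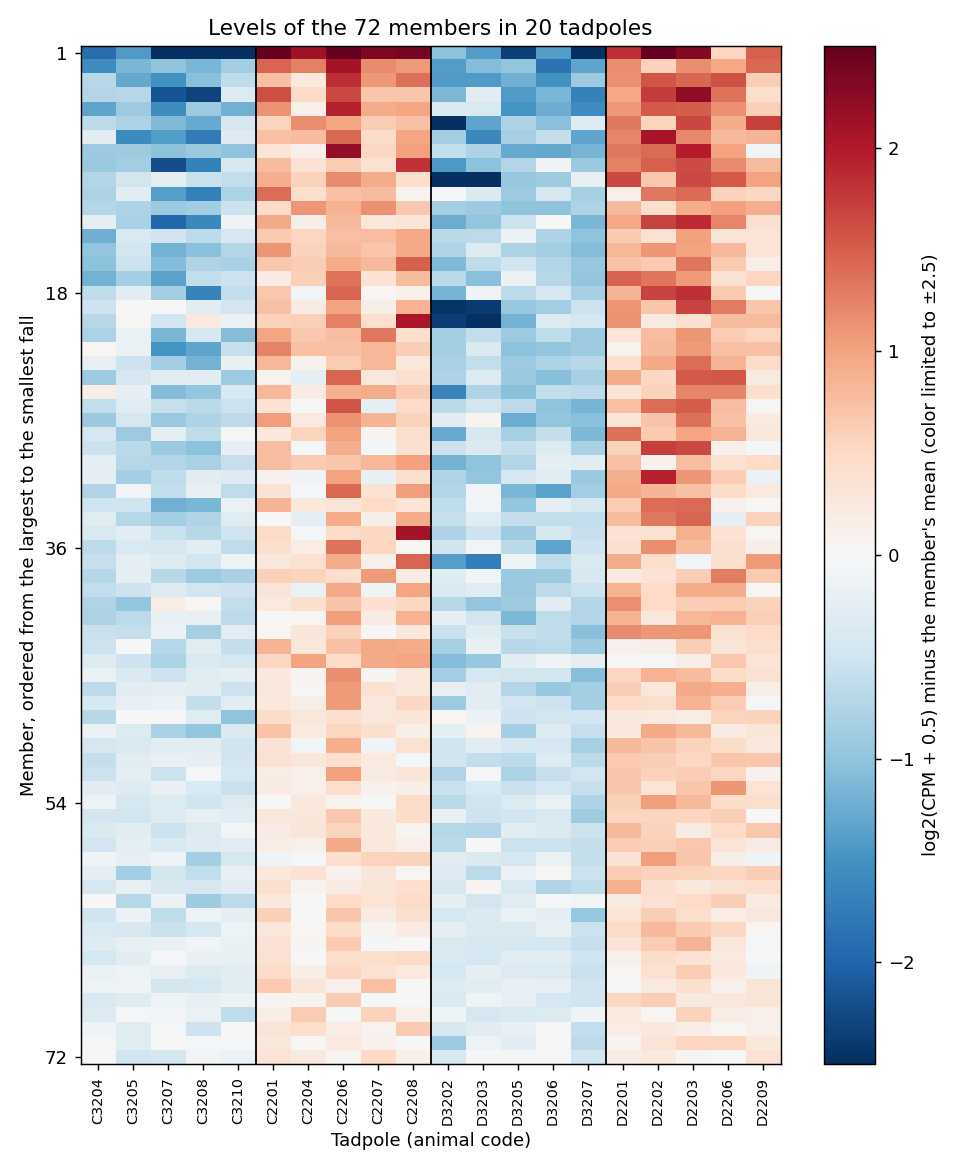
Log2 level of each of the 72 genes (rows, from the largest to the smallest fall) in each of the 20 tadpoles (columns, by animal code), minus the mean of that gene, with red above and blue below the mean. The 32-coded columns are blue and the 22-coded columns red over nearly all rows, with the strongest contrast in the first row and the weakest in the last, and C2206 and D2203 are the reddest columns.

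The largest fall belonged to AB205_0110080, whose mean was 35.1 ± 19.4 CPM in 32-coded tadpoles and 694 ± 312 CPM in 22-coded tadpoles (SD, n = 10 each). It had 36.3, 51.0, 11.9, 19.7 and 15.97 CPM in the 5 C32 tadpoles, against 841, 590, 1125, 699 and 713 CPM in the 5 C22 tadpoles. In D32 tadpoles it had 67.4, 51.7, 26.9, 52.3 and 17.8 CPM, against 486, 1220, 677, 201 and 386 CPM in D22 tadpoles. The lowest 22-coded level, in D2206, was 2.99 times the highest 32-coded level, in D3202. Its log2 fold change was -4.31 (standard error, SE, 0.39). It was also the gene with the largest spread within groups, with an SD of 0.78 on the log2 scale.

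The widest separation relative to its level was that of AB205_0165580, a gene of low abundance. C32 tadpoles had 0.976, 1.47, 1.67, 1.47 and 1.88 CPM and C22 tadpoles 11.5, 9.90, 17.8, 9.40 and 8.61 CPM. D32 tadpoles had 1.14, 1.54, 1.69, 0.711 and 1.24 CPM and D22 tadpoles 9.22, 5.97, 9.20, 7.98 and 11.2 CPM. Its lowest 22-coded level was 3.17 times its highest 32-coded level, and its log2 fold change was -2.86 (SE 0.20). Only this gene and AB205_0110080 had a ratio of 2 or more between these neighbouring tadpoles.

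The smallest adjusted p of the 72 genes in the contrast that chose them, a description here, belonged to AB205_0088990. It had 7.85, 7.52, 6.74, 6.94 and 8.87 CPM in C32 and 18.5, 28.6, 24.3, 29.5 and 21.3 CPM in C22 tadpoles. Its levels were 7.11, 6.73, 6.29, 6.29 and 7.43 CPM in D32 and 23.3, 17.4, 25.5, 27.4 and 25.2 CPM in D22 tadpoles. The 10 32-coded levels lay between 6.29 and 8.87 CPM, and no 22-coded level was below 17.4 CPM. The log2 fold change was -1.75 (SE 0.11).

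At the other end, AB205_0210760 had the smallest fall, with a log2 fold change of -0.42 (SE 0.10). C32 tadpoles had 81.0, 58.7, 59.6, 77.3 and 73.8 CPM and C22 tadpoles 103, 95.2, 85.2, 115 and 89.6 CPM. D32 tadpoles had 62.4, 79.1, 79.7, 79.9 and 58.2 CPM and D22 tadpoles 92.5, 96.9, 85.0, 82.0 and 105 CPM. Here the groups parted by little: the highest 32-coded level was 81.0 CPM, in C3204, and the lowest 22-coded level 82.0 CPM, in D2206. With library totals in place of TMM its change was -0.17 and was not called.

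**Figure D3:**
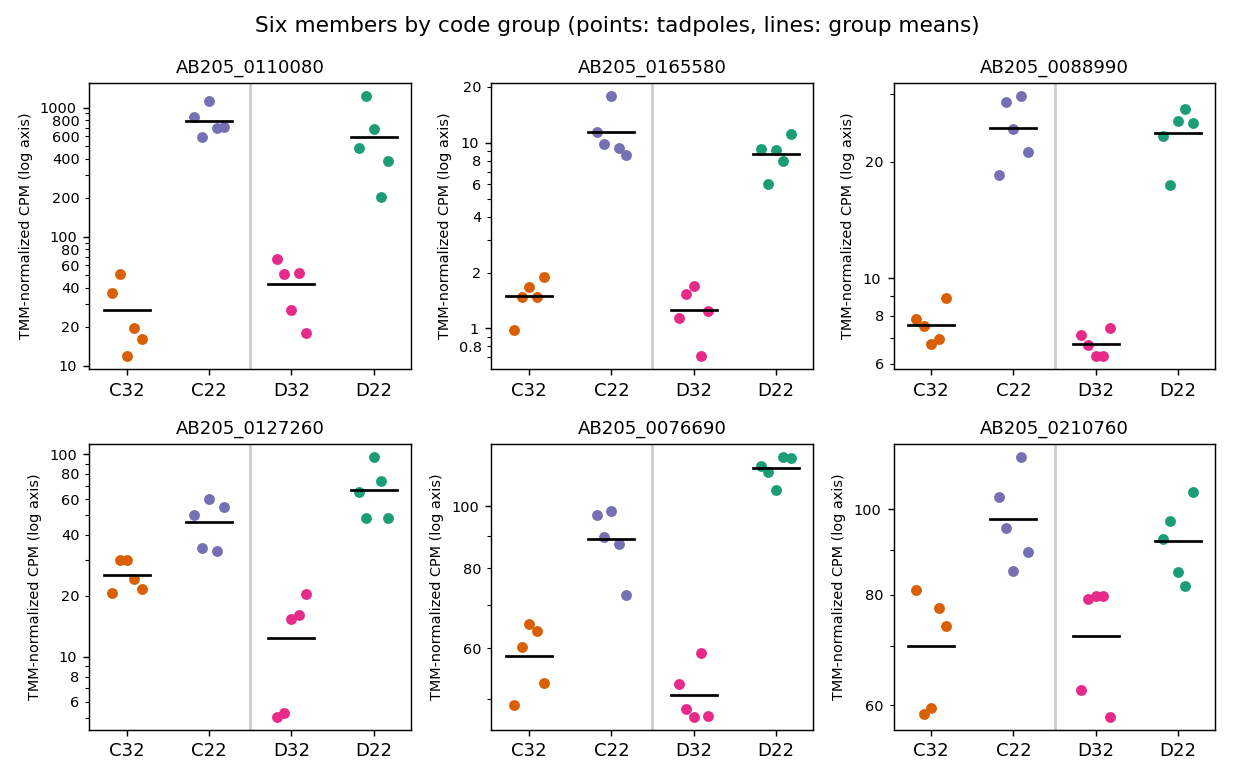
TMM-normalized CPM (log axis) of 6 of the genes by code group, with 1 point per tadpole and a line at the group mean. AB205_0110080, AB205_0165580 and AB205_0088990 part widely, AB205_0210760 parts by 1 CPM, AB205_0127260 is lower in D32 than in C32, and AB205_0076690 is higher in D22 than in C22 with this scaling.

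The most abundant of the 72 genes fell by less than the median of the 72. AB205_0031370 averaged 586 ± 57.1 CPM in 32-coded and 1070 ± 267 CPM in 22-coded tadpoles (SD, n = 10 each), a log2 fold change of -0.87 (SE 0.13). AB205_0064200 averaged 497 ± 93.2 CPM in 32-coded and 995 ± 261 CPM in 22-coded tadpoles, a log2 fold change of -1.001 (SE 0.16). No 32-coded tadpole exceeded 690.2 CPM in the first gene or 592.3 CPM in the second, and in both C2206 stood above the other C22 tadpoles. The least abundant, AB205_0124420, had 0.432 to 1.44 CPM in 32-coded and 1.62 to 2.29 CPM in 22-coded tadpoles. AB205_0210220 had 0.390 to 1.38 CPM in 32-coded and 2.08 to 3.75 CPM in 22-coded tadpoles. These levels rest on counts as low as 11 and 10 in single tadpoles.

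Most of the genes parted narrowly. The lowest 22-coded level was between 1.002 and 3.17 times the highest 32-coded level, with a median of 1.099. It was 1.5 times or more for 11 genes and under 1.1 times for 36 genes. These ratios are those with TMM, and with library totals 51 of the genes no longer parted. The genes just inside the limit were AB205_0115070, at 4.76 CPM in C3204 and 4.78 CPM in C2204, and AB205_0133180, at 141.9 CPM in C3207 and 142.7 CPM in C2208. Just outside it were AB205_0136520, at 201.9 CPM in C3207 and 200.2 CPM in C2201, and AB205_0163490, at 57.7 CPM in D3206 and 57.0 CPM in C2207. Another 105 genes would have parted had 1 tadpole been set aside. The rule did not rank genes by the size of their fall: AB205_0136520 had a log2 fold change of -1.25 (SE 0.22), larger than that of both genes just inside.

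The tadpoles that set the limits were spread over the groups. The highest 32-coded level was that of D3203 for 13 genes, of C3204 for 11 genes and of D3207 for 2 genes, with the other 7 tadpoles between these. The lowest 22-coded level was that of C2204 for 18 genes, of C2207 for 12 genes and of D2209 for 11 genes. Of the libraries with the lowest TMM factors, C2206 set the limit for 1 gene, D2203 for 2 genes, D2201 for 4 genes and D2202 for 6 genes. The choice of genes depended on the scaling: scaled by library totals alone, 26 genes met the rule, 21 of them among the 72. These 21 genes included 8 of the 9 genes with a ratio of means of 4 or more. With the 4 libraries of lowest factor set aside and all levels left as they were, 86 genes met the rule, all 72 among them. Setting tadpoles aside in this way cannot make groups overlap, so nothing is read from the 72 genes staying.

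The median log2 fold change of the 72 genes was -1.05 in C32 against C22 and -1.33 in D32 against D22 tadpoles. Of the 72 genes, 16 were called lower in C32 against C22 tadpoles, where 0.342% of all genes were, and 66 were called lower in D32 against D22 tadpoles, where 6.28% of all genes were. Since both contrasts belong to the rule, nothing is read from these counts. Called in both were 15 genes, in D32 against D22 alone 51 genes, in C32 against C22 alone 1 gene (AB205_0048580), and in neither 5 genes. In C32 against C22 the count was 67 by DESeq2, 27 by edgeR's exact test and 19 by limma voom. Over all genes these called 956, 214 and 64. Without any one of C2207, C3204, C3207, C3208 or C3210 the count was 6 to 9, against 9 to 17 over all genes. In D32 against D22 the count with library totals was 32, where the test called 1463 genes of all higher and 128 lower, against 542 higher and 532 lower with TMM. The genes with large changes in one code had large changes in the other, with Pearson's r of 0.81 and Spearman's rho of 0.79 over the 72 genes. Both changes come from values that the rule used, which requires a fall in each code, so nothing is read from these correlations. The correlations were not taken over all genes. The changes share no tadpole, but genes of 1 library are not independent and share its depth and scaling, and no test was made.

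The comparison was repeated apart in tadpoles with and without the conflict of records. Among the 10 tadpoles whose records agree, D32 against C22, all 72 genes had negative changes with a median of -1.14, and 14 were called lower, against 0.224% of all genes. Among the 10 whose records differ, C32 against D22, all 72 had negative changes with a median of -1.16, and 63 were called lower, against 5.79% of all genes. The rule fixes these directions. The rule applied to each set of 10 alone gave 225 and 438 genes, all 72 among both. The latter was certain, since fewer tadpoles at the same levels cannot make groups overlap.

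The rule did not compare the D code with the C code. Whether the difference between 32-coded and 22-coded tadpoles was larger in the D code was tested as an interaction. It was (D32 minus D22) minus (C32 minus C22) on the log2 scale. The test is not free of the choice, since a rule that forbids overlap uses every level and selects for low spread. Low spread lowers p at a given change, so shares with a small p are not read as a trait of the 72 genes. In edgeR's quasi-likelihood test 0 of the 72 genes passed an adjusted p under 0.05 (smallest adjusted p = 0.25), and 0 of all genes did. At an unadjusted p under 0.05 there were 10 of the 72 genes, 13.9%, all with the larger fall in D, where 5.8% of all genes were negative and 7.14% positive at that level. DESeq2 called 4 of the 72 genes and limma voom 0. Over all 8477 genes DESeq2 called 435, so its calls do not set the 72 genes apart. The interaction was negative for 51 of the 72 genes (70.8%), against 47.8% of all genes, with a median of -0.26 against 0.04 over all genes. With library totals the median of the 72 genes turned to 0.21, while that of all genes moved to 0.53. The interaction was then negative for 20 of the 72 genes and positive for 52. At an unadjusted p under 0.05 there were then 0 negative and 3 positive genes, so the 10 genes above rest on the scaling. The matching share of all genes with library totals was not taken. Relative to all genes, the 72 stood at -0.30 with TMM and at -0.32 with library totals. The sign relative to all genes was negative under both scalings, while the sign of the median itself was not. A change of scaling moves the log2 changes of most genes by similar amounts. The closeness of the relative values is therefore no separate check on the scaling. The low TMM factors of D22 libraries move with this result, and their part in it was not tested.

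**Figure D4:**
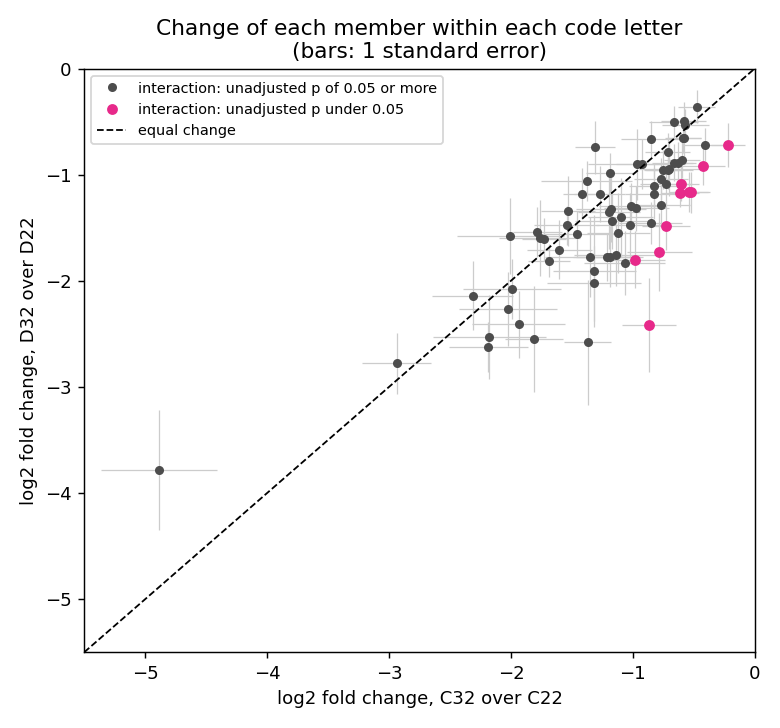
Log2 fold change of each of the 72 genes in D32 over D22 (vertical) against C32 over C22 (horizontal), with bars of 1 standard error and a dashed line of equal change. With TMM, more points lie below the line (51 genes) than above it, and the 10 pink points, with an unadjusted p under 0.05 for the interaction, are all below it. AB205_0110080 stands alone at the lower left.

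The genes with the smallest p for a larger fall in D were AB205_0076690 and AB205_0127260. AB205_0076690 had 52.8, 48.2, 46.9, 59.0 and 47.0 CPM in D32 and 116, 113, 106, 119 and 119 CPM in D22 tadpoles. It had 49.0, 60.2, 65.5, 63.9 and 52.9 CPM in C32 and 96.8, 89.4, 98.4, 87.4 and 72.8 CPM in C22 tadpoles. Its interaction was -0.56 (SE 0.17, adjusted p = 0.25), and of all 72 genes it had the smallest spread within groups, with an SD of 0.15 on the log2 scale. AB205_0127260 had 5.07, 5.29, 15.3, 16.1 and 20.5 CPM in D32 and 65.0, 48.6, 96.8, 73.8 and 48.6 CPM in D22 tadpoles. It had 20.8, 30.2, 30.2, 24.4 and 21.6 CPM in C32 and 50.1, 34.3, 60.1, 33.2 and 54.7 CPM in C22 tadpoles. Its interaction was -1.55 (SE 0.49, adjusted p = 0.25), and it did not pass the test. DESeq2 called both, with adjusted p = 0.0062 for AB205_0076690 and 0.0238 for AB205_0127260. They are among its 435 calls over all genes.

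In the other direction, AB205_0048580 and AB205_0110080 had the smallest p for a larger fall in C. AB205_0048580 had 8.15, 9.09, 14.9, 16.8 and 15.1 CPM in D32 and 18.2, 17.3, 19.8, 28.7 and 22.9 CPM in D22 tadpoles. It had 14.2, 12.4, 10.1, 13.6 and 13.0 CPM in C32 and 26.0, 36.4, 24.7, 34.99 and 35.7 CPM in C22 tadpoles. Its interaction was 0.58 (SE 0.30, adjusted p = 0.411) and that of AB205_0110080 was 1.096 (SE 0.67, adjusted p = 0.485). Neither passed the test.

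Among 22-coded tadpoles, the D and C codes were compared apart from the rule. In D22 against C22 tadpoles 0 of the 72 genes were called by edgeR's quasi-likelihood test at the same threshold, as were 0 of all genes. At an unadjusted p under 0.05 there were 4 higher genes (4.87% of all genes were higher) and 2 lower genes (6.87% of all genes were lower). The exact test and limma voom called 0 of the 72 genes, and DESeq2 called 2. Over all 8477 genes DESeq2 called 350, the exact test 95 and limma voom 0, so these calls do not set the 72 genes apart. The change was positive for 47 of the 72 genes, with a median of 0.13 against -0.05 over all genes. With library totals the median of the 72 genes was -0.27 and that of all genes -0.47, so that the sign of this change rests on the scaling. The change was then positive for 13 genes and negative for 59. At an unadjusted p under 0.05 there were then 0 higher and 18 lower genes. The matching share of all genes was not taken, so these counts are not read as a trait of the 72 genes. Relative to all genes the 72 were at 0.18 with TMM and 0.20 with library totals. As with the interaction, the closeness of these values is no check on the scaling.

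Between the 22-coded groups, AB205_0094790 and AB205_0139080 had the smallest p of the genes higher in D22. AB205_0094790 had 306, 420, 357, 278 and 273 CPM in D22 and 203, 242, 216, 203 and 282 CPM in C22 tadpoles, a log2 fold change of 0.47 (SE 0.18, adjusted p = 0.365). AB205_0139080 had 1149, 1088, 1094, 663 and 708 CPM in D22 and 528, 628, 763, 522 and 623 CPM in C22 tadpoles, a log2 fold change of 0.58 (SE 0.22, adjusted p = 0.366). The groups overlapped in both genes. The 2 genes called by DESeq2, AB205_0076690 (adjusted p = 0.0132) and AB205_0043290 (adjusted p = 0.000145), were also the 2 that were higher in D22 without overlap, as were 1.57% of all genes. Calls by DESeq2 in this comparison numbered 350 over all genes. AB205_0043290 had 998, 957, 943, 920 and 987 CPM in D22 and 771, 820, 687, 794 and 662 CPM in C22 tadpoles. The separation of both genes holds with TMM and not with library totals. D2203 had 1247 counts of AB205_0076690 and 11080 of AB205_0043290, in a library of 17232256. C2204 had more of each, 1554 and 14253 counts, in a smaller library of 14996528. With TMM, none of the 72 genes was lower in D22 without overlap, where 1.3% of all genes were. The smallest p of the lower genes belonged to AB205_0048580, with a log2 fold change of -0.59 (SE 0.21, adjusted p = 0.329), and AB205_0152340, with -0.47 (SE 0.18, adjusted p = 0.366).

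The same comparison was made among 32-coded tadpoles. In D32 against C32 tadpoles 0 of the 72 genes were called by edgeR's quasi-likelihood test at the same threshold, as were 0 of all genes, and DESeq2, the exact test and limma voom also called 0 of the 72. Over all 8477 genes DESeq2 called 139, the exact test 7 and limma voom 0. At an unadjusted p under 0.05 there were 0 higher genes (3.81% of all genes were higher) and 2 lower genes (3.54% of all genes were lower). The change was negative for 51 genes, with a median of -0.12 against -0.00 over all genes. With library totals the median was -0.07 against 0.06, and 0 of the 72 genes had an unadjusted p under 0.05. The matching share of all genes with library totals was not taken. The 2 genes with an unadjusted p under 0.05 with TMM, AB205_0127260 and AB205_0104200, were the 2 that were lower in D32 without overlap, as were 0.708% of all genes. None was higher without overlap, where 0.708% of all genes were.

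AB205_0127260, whose levels are given above, had a log2 fold change of -1.05 (SE 0.40, adjusted p = 0.641) in D32 against C32 tadpoles. AB205_0104200 had 12.1, 11.8, 11.4, 11.4 and 10.3 CPM in D32 and 12.6, 13.7, 13.8, 14.8 and 13.8 CPM in C32 tadpoles, a log2 fold change of -0.28 (SE 0.11, adjusted p = 0.641). The difference was small in AB205_0104200, with every D32 tadpole just below every C32 tadpole. The smallest p of the higher genes belonged to AB205_0110080, with a log2 fold change of 0.66 (SE 0.49, adjusted p = 0.782), and AB205_0150610, with 0.55 (SE 0.45, adjusted p = 0.819).

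Over all 20 tadpoles, D-coded against C-coded, 0 of the 72 genes were called by the quasi-likelihood test, DESeq2, the exact test or limma voom. Of all genes, DESeq2 called 82 and the quasi-likelihood test 0. At an unadjusted p under 0.05 there were 0 of the 72 genes, against 2.69% of all genes higher and 2.63% lower. This fit held no term for the code temperature, so the difference that chose the genes entered its spread. The 0 is therefore not read as a result about the 72 genes. In the quasi-likelihood test with all 4 groups in one fit, 3 of the 72 genes had an unadjusted p under 0.05 and 0 were called. The values that follow are those of the fit with no term for the code temperature. Its adjusted p was 0.999 for all 72 genes. The smallest unadjusted p of the higher genes belonged to AB205_0129480, with a log2 fold change of 0.61 (SE 0.45), and AB205_0043290, with 0.28 (SE 0.21). Of the lower genes it belonged to AB205_0152340 and AB205_0048580, both with -0.37 (SE 0.27 and 0.28). The median change of the 72 genes was 0.09 with TMM, with 46 genes positive, and -0.20 with library totals, with 10 positive. Over all genes the median was 0.01 with TMM and -0.16 with library totals. At an unadjusted p under 0.05 there were 5 lower and 0 higher of the 72 genes with library totals. The matching share of all genes was not taken. By the treatment fields, D-coded against C-coded is the comparison of warm with cool tadpoles.

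The order of the 4 group means differed between the genes. The highest mean was in D22 tadpoles for 50 genes and in C22 tadpoles for 22 genes. The lowest mean was in D32 tadpoles for 51 genes and in C32 tadpoles for 21 genes. Lowest in D32 and highest in D22 were 34 genes, and lowest in C32 and highest in C22 were 5 genes. These orders are those with TMM, and the order of the 22-coded groups rests on the scaling. With library totals the change in D22 against C22 was positive for 13 of the 72 genes and negative for 59. In D32 against C32 it was positive for 25 genes and negative for 47. Neighbouring groups in this order (D32 and C32, D22 and C22) differed for 0 of the 72 genes by the quasi-likelihood test, as for 0 of all genes. The shares of these orders over all genes were not taken, so the counts are not read as a trait of the 72 genes.

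Correlations between the genes were taken over tadpoles after removing the differences between groups. After the group mean was taken from each log2 level, the 2556 pairs of the 72 genes had a median correlation of 0.158 over the 20 tadpoles, with quartiles of -0.085 and 0.394. Pairs of all 6364 genes with no count of 0 and a mean under 1000 CPM, the 72 among them, had a median of 0.00055 and quartiles of -0.234 and 0.238. The points share their libraries, depth and TMM factors. The rule selects for low spread, and no reference of like abundance and spread was taken. The higher median is therefore not read as a trait of the 72 genes. For the 72 genes the median was 0.277 with library totals and 0.178 with RLE size factors. The median over all 6364 genes was taken with TMM alone, so these values have no reference. The closest pairs were AB205_0006150 with AB205_0064200 (0.92), AB205_0144960 with AB205_0131880 (0.89) and AB205_0127260 with AB205_0194400 (0.89), and 23 pairs lay above 0.8. In each gene of the first 2 of these pairs, C2206 lay furthest above its group mean. In both genes of the third, D3202 and D3203 lay furthest below theirs. How far these correlations rest on single tadpoles was not tested. The spread among pairs was wide, from -0.87 to 0.92, so that the 72 genes did not move as 1 unit. Genes of adjoining identifier were few: AB205_0099210 and AB205_0099220 had 0.43, with ratios of means of 5.27 and 5.13, and AB205_0129480 and AB205_0129500 had 0.68. Whether near identifiers stand for neighbours in the genome is not given in the sources used here, and reads shared between related genes could not be checked.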

How the data were processed

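Gut RNA of 20 tadpoles was sequenced as paired-end reads from TruSeq mRNA libraries, 1 per tadpole. Trimming used Trim Galore, alignment to a bullfrog draft genome used BWA, and counting used StringTie. From this the authors deposited raw counts, as whole numbers, for genes left after a filter on low abundance. All 8477 genes had at least 2 CPM in at least 3 libraries. Versions and strand settings are not given in the sources used here.

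Library totals ran from 11102195 to 22922461. CPM were scaled with TMM factors over all 20 libraries (edgeR 4.0.16, R 4.3.3), with a prior count of 2 where logarithms of CPM were taken for correlations and spreads. Each comparison was fitted to all genes with edgeR's quasi-likelihood test (glmQLFit and glmQLFTest) on its own tadpoles, and the interaction on all 4 groups. Adjusted p-values are Benjamini–Hochberg over 8477 genes, with a threshold of 0.05 and no minimum fold. The p-values measure the spread between these tadpoles, which share 1 pair of parents. Scripts were tested on simulated data. Tadpoles were grouped by animal code and none was left out. Pairing by animal number was checked and not used.

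The members, lists and tests were chosen with earlier results of these data known. Genes were named by a rule: the smallest adjusted p, largest and smallest fall, highest and lowest mean, widest and narrowest separation, largest and smallest spread, and the smallest p in each direction of each comparison between codes. Lists of named genes and cell type markers could not be applied, since identifiers are not paired with names. The alternatives tried were limma 3.58.1 (voom), DESeq2 1.42.0, the exact test of edgeR, RLE size factors, library totals, a minimum of 10 counts in 10 or more libraries, all 4 groups in one fit, an adjusted p under 0.01, animal number as a block, each tadpole left out in turn, and other limits on counts of 0 and mean CPM. Standard errors are the absolute log2 fold change divided by the root of F. Results in tadpoles whose records agree or differ, without the 4 libraries of lowest TMM factor, and of group medians under other scalings were added after the data had been seen.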

Additional observations from a re-analysis of the deposited data

Results flagged for a closer look

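In groups of 5 tadpoles, a tadpole was looked at again where its gap to the nearest other tadpole exceeded 0.71 of the range of the group. Chance gives this in about 5% of groups of normally distributed values, and the distribution of the CPM was not checked. Among those of the 72 genes that were named by the rule above, this held for 4 of 88 groups. AB205_0064200 had 1431 CPM in C2206, against 699 to 893 CPM in the other C22 tadpoles. AB205_0031370 had 1056 CPM in the same tadpole, against 836 to 898 CPM in the others. AB205_0064000 had 11.3 CPM in C2204, against 15.0 to 16.02 CPM in the other C22 tadpoles. AB205_0133180 had 115.7 CPM in C3205, against 138 to 142 CPM in the other C32 tadpoles. Over all 72 genes, 23 of 288 groups had such a tadpole, and in 10 of these it was C2206, the C22 library with the lowest TMM factor. The rate over all genes was not taken, so these counts are not read as a trait of the 72 genes. C2206 was also the highest C22 tadpole in 3 genes named for their close correlations. It had 152 CPM in AB205_0006150 (others 46.8 to 73.1), 313 CPM in AB205_0144960 (others 88.8 to 147) and 436 CPM in AB205_0131880 (others 104 to 193).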

How the results depend on the processing

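The number of genes that met the rule was 72, and 26 with library totals, 225 in D32 against C22 tadpoles, 438 in C32 against D22 tadpoles and 0 by the treatment fields. Leaving out each tadpole in turn, with TMM factors computed again, gave 59 to 100 genes. Without any one of C2201, C2207, C3204, D2209, D3205 or D3207, 13 or 14 of the 72 genes were lost. All 72 stayed without any one of the other tadpoles. The count called in 32-coded against 22-coded tadpoles was 72 without any one tadpole and 14 in D32 against C22 tadpoles, with a median of -0.91 with library totals (-1.28 to -1.17 without any one tadpole). In C32 against C22 tadpoles the count of 16 became 67 with DESeq2, 27 with the exact test, 10 with library totals, 48 with all groups in one fit, 6 at an adjusted p under 0.01, and 6 to 19 without any one tadpole. In D32 against D22 tadpoles the count of 66 became 32 with library totals, 13 at an adjusted p under 0.01, and 45 to 64 without any one tadpole. The counts of 0 stayed at 0 without any one tadpole, and became 2 (D22 against C22) and 4 (interaction) with DESeq2. The medians reversed with library totals were -0.27 (D22 against C22) and 0.21 (interaction). The cause was not tested.

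Same-numbered tadpoles did not deviate together (12 pairs, correlations of -0.12 to 0.075, 0 above 0.1). With animal number as a replicate block, 59 of the 72 genes were called in 32-coded against 22-coded tadpoles, 7 in C32 against C22 and 47 in D32 against D22. Over all genes, the calls in 32-coded against 22-coded tadpoles were 1889, and 305 with the block and 845 at an adjusted p under 0.01. In C32 against C22 they were 50, and 956 with DESeq2, 214 with the exact test, 105 with the count filter, 254 in one fit, 16 with library totals, 7 at 0.01 and 9 with the block. In D32 against D22 they were 1074, and 1949 with DESeq2, 53 at 0.01 and 302 with the block. Without any one tadpole they were 9 to 127 in C32 against C22 and 401 to 1290 in D32 against D22. DESeq2 called 350 (D22 against C22), 139 (D32 against C32), 82 (D against C) and 435 genes (interaction) where the quasi-likelihood test called 0.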

Other observations

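A pattern was noticed after the values had been seen, in 2 of the D32 tadpoles. D3202 and D3203 both lay below the other D32 tadpoles for 9 of the 72 genes, and for 5 of these by 1.5-fold or more. The share over all genes was not taken, so these counts are not read as a trait of the 72 genes. AB205_0194400 had 4.03 and 2.72 CPM in D3202 and D3203, against 14.6, 15.2 and 25.1 CPM in the other D32 tadpoles. AB205_0127260 had 5.07 and 5.29 CPM in them, against 15.3, 16.1 and 20.5 CPM. AB205_0018370 had 2.29 and 1.49 CPM, against 5.83, 10.7 and 9.99 CPM. AB205_0139540 had 3.53 and 2.62 CPM, against 9.21, 6.21 and 7.51 CPM, and AB205_0048580, the fifth of them, 8.15 and 9.09 CPM, against 14.9, 16.8 and 15.1 CPM. The same tadpoles were not low over the whole set: the summed level of the 72 genes was 5887 CPM in D3202 and 6512 CPM in D3203, against 4947 to 6070 CPM in the other D32 tadpoles. The tadpoles were picked by these values, so that no test was made.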
